A study of Mus musculus with 8 samples.

Results

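Integrin subunit genes that encode receptors for laminin, fibronectin and related matrix proteins were followed in mouse quadriceps muscle, 10 in number: the alpha subunit genes Itga7, Itga6, Itga3, Itga1, Itga5 and Itgav and the beta subunit genes Itgb1, Itgb3, Itgb5 and Itgb6. They were chosen by gene symbol, and all 10 were found, each once, among the 43628 genes of the deposited table. The study compared 3 groups of male mice aged 8 weeks, 40 mice in all. Wild type (WT) was strain C57BL/10ScSnJ (14 mice). The mdx group was C57BL/10ScSn-Dmdmdx/J (15 mice), with a mutation in Dmd, the gene for dystrophin, and models Duchenne muscular dystrophy. The dy2J/dy2J group (dy2J) was C57BL/6J Lama2dy-2J (11 mice), with a mutation in Lama2, the gene for the laminin alpha-2 chain, and models Lama2-related congenital muscular dystrophy. The labels name no further transgene or treatment. RNA of 4 to 6 mice (5 to 6 in dy2J) was pooled before sequencing, for 3 libraries of WT, 3 of mdx and 2 of dy2J. An n is a number of pools, and the variation from mouse to mouse was not measured. The dy2J mice differ from WT in strain background as well as in Lama2, and these cannot be told apart.

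Integrins are membrane receptors made of 1 alpha and 1 beta subunit that tie the extracellular matrix to the actin cytoskeleton. In skeletal muscle the pair of alpha-7 and beta-1 is the main integrin receptor for laminin and stands beside dystroglycan as a link between the fibre and its basement membrane. The alpha-6 and alpha-3 subunits also pair with beta-1 to bind laminins, alpha-1 with beta-1 binds collagen and laminin, and alpha-5 with beta-1 is the classic fibronectin receptor. The alpha-v subunit pairs with beta-1, beta-3, beta-5 or beta-6 and recognises the RGD motif of fibronectin, vitronectin and latent TGF-beta. Levels are given in FPKM, sequenced fragments normalised for transcript length and library size, so they can be set against each other between genes. Fold changes are on the log2(FPKM + 1) scale, where the added 1 shrinks the change of weakly expressed genes. A gene is called where the Benjamini-Hochberg adjusted p of a limma fit over the 12830 genes tested is under 0.05.

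The muscle label and the mutations were checked first. The 10 muscle fibre marker genes summed to 107333 to 123980 FPKM per WT pool, 78786 to 119274 per mdx pool and 72975 and 80456 for dy2J. Against WT, 5 of the 10 were lower and 1 higher in mdx, and 5 were lower and 2 higher in dy2J. Over all genes tested, 12.8% were called lower and 23.9% higher in mdx, and 9.04% and 11.5% in dy2J. These shares stand beside the counts of marker genes against WT below. Acta1 and Myh4 were listed at 0 in some libraries although muscle uses both. Mean Dmd was 29.8 ± 2.01 FPKM (SD over 3 pools) for WT, 4.58 ± 0.808 for mdx (3 pools) and 25.4 ± 3.76 for dy2J (2 pools), and mean Lama2 was 9.40 ± 0.0505, 11.0 ± 1.69 and 5.19 ± 0.170. Every later SD is over these numbers of pools. Summed FPKM ranged from 556218 to 785513 per library, which is not a depth, and the number of reads behind a value is unknown. No member was listed at 0 in any library. In bulk muscle, fewer cells of a type and less RNA per cell cannot be told apart.

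Promoter sequence is shown for 4 members whose expression separated in mdx: Itga5, Itgav and Itgb1, which rose, and Itga1, which fell. Itga7 and Itga3 also rose in mdx, but no window was available for Itga7 and those of Itga3 are not printed. Each window is the 250 bases before the RefSeq start (build GRCm38.p6), written 5′ to 3′ on the gene's strand, and capitals mark GGGCGG (the GC box bound by Sp1-type factors) and CAGCTG (an E-box form bound by myogenic factors), on either strand, so that GGGCGG on the other strand reads CCGCCC.
Itga5 (chr15:103366792-103367041, minus strand): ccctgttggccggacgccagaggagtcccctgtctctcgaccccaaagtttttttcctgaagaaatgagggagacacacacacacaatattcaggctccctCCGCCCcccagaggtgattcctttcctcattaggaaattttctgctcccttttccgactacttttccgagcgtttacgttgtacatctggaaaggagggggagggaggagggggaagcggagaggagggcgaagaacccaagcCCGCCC
Itgav (chr2:83724147-83724396, plus strand): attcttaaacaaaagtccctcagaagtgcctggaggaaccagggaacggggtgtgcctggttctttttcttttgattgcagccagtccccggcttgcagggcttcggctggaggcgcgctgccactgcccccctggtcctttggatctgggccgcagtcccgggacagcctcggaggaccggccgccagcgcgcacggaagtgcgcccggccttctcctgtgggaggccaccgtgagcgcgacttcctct
Itgb1 (chr8:128685404-128685653, plus strand): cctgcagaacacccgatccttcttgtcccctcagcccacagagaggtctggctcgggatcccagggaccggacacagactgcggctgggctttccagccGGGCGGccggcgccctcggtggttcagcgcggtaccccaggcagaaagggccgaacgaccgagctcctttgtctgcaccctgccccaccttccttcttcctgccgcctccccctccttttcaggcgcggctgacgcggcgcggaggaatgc
Itga1 (chr13:115101965-115102214, minus strand): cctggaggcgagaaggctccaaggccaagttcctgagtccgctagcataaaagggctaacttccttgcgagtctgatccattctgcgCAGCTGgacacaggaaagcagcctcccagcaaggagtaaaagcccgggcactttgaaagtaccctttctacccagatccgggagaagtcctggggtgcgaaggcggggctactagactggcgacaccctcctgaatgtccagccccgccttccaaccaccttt
GGGCGG occurred 2 times before Itga5, 1 time before Itgb1 and 0 times before Itgav and Itga1, and 32.7% of the 32851 mouse promoter windows of that length hold it. CAGCTG occurred 1 time before Itga1 and 0 times before the other 3, against 13.001% of all windows. TGANTCA, the AP-1 motif, occurred 0 times in the 4 windows, against 6.75% of all windows. None of the 3 motifs overlaps another by its letters in these windows. GC content was 55.6% before Itga5, 64.4% before Itgav, 68.0% before Itgb1 and 57.6% before Itga1. Windows not printed held these motifs as well. GGGCGG occurred 3 and 1 times in windows before Itga3 and 3 times before Itgb5. CAGCTG occurred 1 time before Itgb5, which was not called in mdx.

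Healthy muscle held these transcripts at very unequal levels. Itgb1, the shared partner, averaged 110.5 ± 7.51 FPKM in WT and exceeded 96.0% of the genes tested. Itga6 followed at 24.1 ± 2.14, then Itgb5 at 19.3 ± 1.05 and Itga7 at 16.1 ± 0.0901, and in each step all WT pools of the higher gene lay above all WT pools of the next. Itgb6 (12.5 ± 2.146) and Itgav (11.2 ± 1.63) overlapped, as did Itga1 (4.22 ± 0.441) and Itga5 (3.38 ± 0.773). Itga3 (1.36 ± 0.0886) and Itgb3 (0.411 ± 0.0614) were lowest, and Itgb3 exceeded 2.09% of the genes tested. The order changed in the models. In mdx Itga7 stood second at 32.8 ± 4.45 FPKM, with every mdx pool above those of Itga6, at 21.4 ± 2.05. Itga6, Itgav (19.5 ± 3.39) and Itgb5 (19.2 ± 1.60) overlapped there in neighbouring pairs. In dy2J Itgb5 (22.6 ± 3.89), Itga7 (20.9 ± 2.2) and Itgav (19.7 ± 0.0528) were next to each other with overlapping pools, and all 3 ranked above Itga6 (17.4 ± 0.852).

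**Figure D1:**
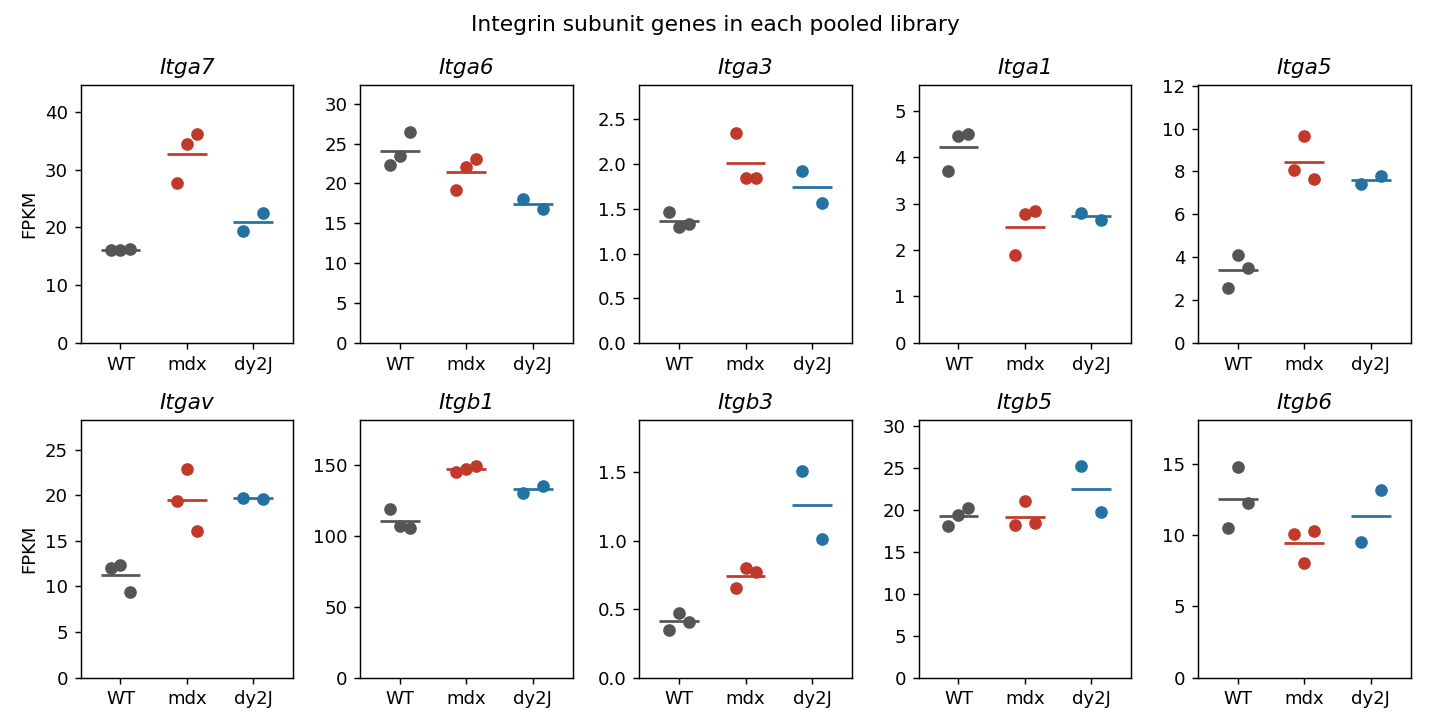
FPKM (linear axis from 0, a scale per gene) of the 10 integrin genes in each pooled library of WT, mdx and dy2J muscle, with points for pools and bars for group means. Itga7 was 27.8 to 36.2 in mdx against 16.1 to 16.3 in WT, and Itga5 and Itgav lay above WT in every pool of both models.

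Setting mdx beside WT of matching strain asks what loss of dystrophin does. Of the 10 members 5 were higher and 1 lower, where 36.7% of all genes tested were called (23.9% higher and 12.8% lower). Itga7, Itga5, Itgav, Itgb1 and Itga3 rose, Itga1 fell, and Itga6, Itgb3, Itgb5 and Itgb6 were not called. The median log2 fold change of the members was 0.33, beside 0.07 over all genes. In 8 of the 10 the pools of mdx and WT did not overlap, against 50.4% of all genes. Of all genes called 65.1% were higher, but 42.6% after quantile normalization, under which 4 members were higher and 2 lower.

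The comparison of dy2J with WT asks what the defect of laminin alpha-2 does, together with the change of strain. Of the 10 members 3 were higher (Itga5, Itgav and Itgb3) and 1 lower (Itga6), where 20.6% of all genes were called (11.5% higher and 9.04% lower). The median was 0.24, beside 0.01 over all genes. Pools did not overlap in 8 members, against 60.8% of all genes. Of all genes called 56.0% were higher, and 44.0% after quantile normalization. Without dy2J 1 or without dy2J 2 only 1 member passed, Itga5 in both cases, and Itgb3 was then not tested. Both comparisons share the WT libraries. The direct comparison of dy2J with mdx called 1 member, Itga7, which was lower in dy2J, where 6.43% of all genes were called (3.66% lower), and pools of 4 members did not overlap, against 41.9% of all genes.

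**Figure D2:**
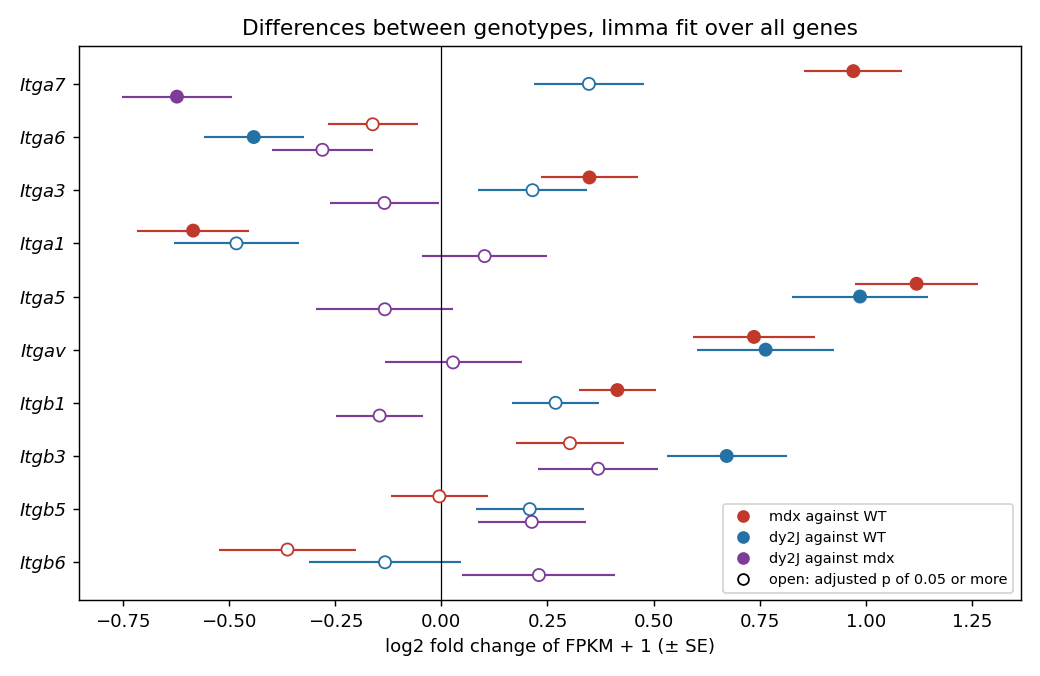
Log2 fold change of FPKM + 1 with its SE (horizontal axis) for each integrin gene in the 3 comparisons, from limma over all genes. Filled points passed an adjusted p of 0.05: 6 in mdx against WT, 4 in dy2J against WT and 1 in dy2J against mdx.

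Among the laminin-binding alpha subunits, Itga7 (ENSMUSG00000025348, GRCm38 chromosome 10, 128933813 to 128958277) encodes the muscle subunit whose loss itself causes a myopathy. It stood at 16.1, 16.1 and 16.3 FPKM in WT, 27.8, 34.4 and 36.2 in mdx and 19.3 and 22.4 in dy2J. The 3 groups did not overlap, with dy2J between WT and mdx. In mdx Itga7 rose by 0.97 ± 0.12 (SE; limma adjusted p = 0.00069), and this held under all 17 alternatives. In dy2J it lay 0.35 ± 0.13 above WT without passing (limma adjusted p = 0.0911), though it passed under 3 of 17 alternatives (0.0314 to 0.385), 1 of them without mdx 1 (0.0477). The models differed by -0.62 ± 0.13 (limma adjusted p = 0.0278), which did not pass under 9 of 17 alternatives (0.0112 to 0.187). Among these were the fits without dy2J 1 (0.187), dy2J 2 (0.0961), mdx 2 (0.0514), mdx 3 (0.0562), WT 2 (0.0535) and WT 3 (0.0511). The authors' deposited table likewise called Itga7 in mdx (q = 0.000749) and not in dy2J (q = 0.114). Mettl7b, which overlaps Itga7 on the opposite strand, was at most 0.109 FPKM.

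Itga6 (ENSMUSG00000027111, chromosome 2, 71745616 to 71858416), which encodes a laminin receptor subunit of many cell types including satellite cells and endothelium, went the other way. WT pools held 22.3, 23.5 and 26.5 FPKM, mdx pools 19.2, 22.1 and 23.1, and dy2J pools 18.0 and 16.8. The mdx pools overlapped WT, while both dy2J pools lay below every other pool. Itga6 fell by 0.44 ± 0.12 in dy2J (limma adjusted p = 0.0321), and the difference in mdx was -0.16 ± 0.11 (limma adjusted p = 0.26). The authors' deposited table called neither (q = 0.396 in dy2J and 0.877 in mdx). The call in dy2J was lost under 6 of 17 alternatives (0.0211 to 0.161), including without dy2J 1 (0.135), dy2J 2 (0.161), WT 2 (0.0765) or WT 3 (0.095). The difference between the models did not pass (-0.28, limma adjusted p = 0.178).

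Itga3 (ENSMUSG00000001507, chromosome 11, 95044474 to 95076801), which encodes a laminin receptor subunit best known from epithelia, was low throughout. Its values were 1.46, 1.29 and 1.33 FPKM in WT, 2.35, 1.84 and 1.84 in mdx and 1.93 and 1.56 in dy2J. Every pool of either model lay above every WT pool. The rise in mdx (0.35 ± 0.11, limma adjusted p = 0.0419) was narrow and did not pass under 12 of 16 alternatives (0.033 to 0.507). Without any 1 library other than mdx 3 it did not pass (0.0508 to 0.119). The authors' deposited table did not call it (q = 0.133). In dy2J the difference was 0.21 (limma adjusted p = 0.261).

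Itga1 (ENSMUSG00000042284, chromosome 13, 114958079 to 115101964), which encodes a collagen and laminin receptor subunit of endothelium, smooth muscle and fibroblasts, was the called member that fell in mdx. It stood at 3.71, 4.45 and 4.50 FPKM in WT, 1.89, 2.77 and 2.84 in mdx and 2.80 and 2.65 in dy2J. All 5 pools of the models lay below all WT pools. Itga1 fell by 0.58 ± 0.13 in mdx (limma adjusted p = 0.00958), also under all 16 alternatives. In dy2J the difference was -0.48 ± 0.15 and just missed the threshold (limma adjusted p = 0.0503), passing under 6 of 16 alternatives (0.0123 to 0.196), among them without mdx 1 (0.0212), mdx 2 (0.0484) or mdx 3 (0.0484), and the authors' deposited table gave q = 0.022. The 8 endothelial marker genes summed to 108 to 136 FPKM per WT pool, 81.3 to 92.8 per mdx pool and 96.5 and 96.9 for dy2J, with 5 of 8 lower in mdx, 2 of 8 lower in dy2J and none at 0. The 7 smooth muscle and pericyte genes summed to 157 to 165 FPKM per WT pool, 115 to 154 per mdx pool and 143 and 146 for dy2J. Of the 6 tested, 3 were lower and 1 higher in mdx, and 2 lower and 1 higher in dy2J. Fibroblast and fibro-adipogenic progenitor genes went the other way in sum. They summed to 965 to 1038 FPKM per WT pool, 1556 to 1746 per mdx pool and 1529 and 2315 for dy2J. Of these 8 genes 6 were higher in mdx and 5 in dy2J, with 0 lower. The shares of all genes were 23.9% higher and 12.8% lower in mdx, and 11.5% and 9.04% in dy2J. Satellite cell and myoblast genes summed to 15.1 to 22.2 FPKM per WT pool and 42.4 and 45.5 for dy2J, with 2 of 8 higher and 1 lower in dy2J. The part of all these cells in the levels of Itga1, and of Itga6 in dy2J, was not tested. Pelo, which lies within the locus of Itga1 on the same strand, missed the threshold in mdx (0.10, limma adjusted p = 0.539) and dy2J (-0.19, limma adjusted p = 0.333).

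Of the fibronectin-binding subunits, Itga5 (ENSMUSG00000000555, chromosome 15, 103344289 to 103366763) showed the highest log2(FPKM + 1) fold changes among the members in both models, although with a pseudocount of 0.1 Itgb3 was higher in dy2J (1.40 against 1.17). It stood at 2.56, 4.09 and 3.50 FPKM in WT, 8.07, 9.68 and 7.64 in mdx and 7.41 and 7.77 in dy2J. All model pools lay above all WT pools, and mdx and dy2J overlapped. In mdx Itga5 rose by 1.12 ± 0.14 (limma adjusted p = 0.000914) and in dy2J by 0.99 ± 0.16 (limma adjusted p = 0.00517), and both calls held under all 17 alternatives, the latter at 0.0499 without dy2J 1. The authors' deposited table called both (q = 0.000749 for each). The models differed by -0.13 ± 0.16, which did not pass (limma adjusted p = 0.648).

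Itgav (ENSMUSG00000027087, chromosome 2, 83724397 to 83806916), the alpha-v gene, whose product also activates latent TGF-beta, moved beside it. WT pools held 12.1, 12.3 and 9.37 FPKM, mdx pools 19.4, 22.9 and 16.1 and dy2J pools 19.7 and 19.6. Again no model pool reached down to WT, and the models overlapped. In mdx Itgav rose by 0.74 ± 0.14 (limma adjusted p = 0.00516) and in dy2J by 0.76 ± 0.16 (limma adjusted p = 0.0137). The rise in dy2J did not pass without dy2J 1 (0.101) or dy2J 2 (0.0709), and the authors' deposited table called neither (q = 0.148 and 0.179).

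Summed macrophage and fibroblast markers, like Itga5 and Itgav, were higher than WT in both models. Against mdx, 3 of 10 macrophage genes were lower in dy2J and 2 of 8 fibroblast genes higher, where 3.66% and 2.77% of all genes were. Between the models the fibroblast sums overlapped, as Itga5 and Itgav did, and the macrophage sums did not. The 10 macrophage genes found, Itgam among them and all above 0 in every library, summed to 172 to 201 FPKM per WT pool, 809 to 1602 per mdx pool and 472 and 581 for dy2J, with 10 of 10 higher in mdx and 8 of 10 in dy2J. The 8 fibroblast and fibro-adipogenic progenitor genes, none at 0, summed to 965 to 1038 in WT, 1556 to 1746 in mdx, beside 1529 and 2315 in dy2J, with 6 of 8 and 5 of 8 higher. Their part in the rise of Itga5 and Itgav was not tested. Satellite cell and myoblast genes (8 found, Cdh15 at 0 in some library) summed to 15.1 to 22.2 in WT, 94.1 to 113 in mdx, beside 42.4 and 45.5 in dy2J. Of these 8 genes 6 were higher and 1 lower in mdx, but only 2 were higher and 1 lower in dy2J. Over all genes 23.9% were higher and 12.8% lower in mdx, beside 11.5% and 9.04% in dy2J. Regenerating fibre genes (7 found, Chrng at 0 in some library) summed to 19.98 to 31.4, 322 to 616 and 197 and 217, with 7 of 7 higher in both models and 4 of 7 lower in dy2J than in mdx. These 2 sums, whose lists share the symbols Mymk and Tmem8c, were in the order of Itga7, WT lowest and mdx highest. The macrophage sum was in this order too. So was that of platelet genes, at 16.9 to 21.9 FPKM per WT pool, 37.0 and 37.2 for dy2J and 40.9 to 87.6 per mdx pool. The part of any of these cells in the level of Itga7 was not tested.

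Among the beta subunits, Itgb1 (ENSMUSG00000025809, chromosome 8, 128685654 to 128733200) encodes the partner of all 6 alpha subunits followed here. It stood at 119, 107 and 105 FPKM in WT, 145, 148 and 149.7 in mdx and 131 and 136 in dy2J. The 3 groups did not overlap, in the same order as for Itga7. Itgb1 rose by 0.41 ± 0.09 in mdx (limma adjusted p = 0.00848), under all 17 alternatives, but the authors' deposited table did not call it (q = 0.296). The difference of 0.27 ± 0.10 in dy2J did not pass (limma adjusted p = 0.0963), nor did that between the models (-0.15, limma adjusted p = 0.407).

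Itgb3 (ENSMUSG00000020689, chromosome 11, 104608000 to 104670476) encodes the beta-3 subunit, which pairs with alpha-v and, in platelets, with alpha-IIb. It was at 0.351, 0.474 and 0.406 FPKM in WT, 0.651, 0.802 and 0.768 in mdx and 1.51 and 1.01 in dy2J. The 3 groups did not overlap and dy2J was highest. Only the 2 dy2J pools reached 1 FPKM, so the gene entered the test through the group in which it is high, and its call in dy2J (0.67 ± 0.14, limma adjusted p = 0.0135) is conditional on that. With no expression minimum it was 0.018. In mdx the difference was 0.30 ± 0.13 (limma adjusted p = 0.0921), and quantile normalization turned its sign, while the authors' deposited table called both (q = 0.00569 and 0.000749). Platelet genes (7, with Gp9 and Gp6 at 0 in some library) include Itga2b. They summed to 16.9 to 21.9 FPKM per WT pool, 40.9 to 87.6 per mdx pool and 37.0 and 37.2 for dy2J. Every mdx pool lay above both dy2J pools in this sum. Of the 4 tested, 2 were higher and 1 lower in mdx, 2 were higher in dy2J, and 0 were called between the models. Their part in the level of Itgb3 was not tested.

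Itgb5 (ENSMUSG00000022817, chromosome 16, 33829665 to 33949153), which encodes the vitronectin receptor partner of alpha-v, overlapped between all groups. Pools held 18.2, 19.4 and 20.2 FPKM in WT, 18.2, 21.1 and 18.4 in mdx and 25.3 and 19.8 in dy2J. Its limma adjusted p was 0.98 in mdx and 0.274 in dy2J. Itgb6 (ENSMUSG00000026971, chromosome 2, 60598292 to 60722643) encodes a beta subunit known mainly from epithelia, where with alpha-v it binds fibronectin and activates latent TGF-beta. It held 10.5, 14.7 and 12.3 FPKM in WT, 10.1, 8.02 and 10.3 in mdx and 9.52 and 13.2 in dy2J. The mdx pools lay just below WT, a difference of -0.36 ± 0.16 that did not pass (limma adjusted p = 0.11) but did after quantile normalization (0.0415), and dy2J overlapped both. The 6 epithelial markers summed to 0.140 to 0.272 FPKM per WT pool, 2.81 to 4.45 per mdx pool and 3.10 and 7.68 for dy2J, and Epcam, Krt14, Krt8 and Krt5 were at 0 in some library. In WT, Itgb6 was more abundant than the epithelial markers combined in every pool.

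Subunit balance was described from ratios within a library, which do not depend on scaling between libraries. The 6 alpha genes summed to 58.2 to 61.7 FPKM per WT pool, 78.7 to 93.6 per mdx pool and 69.2 and 70.9 for dy2J. Itga6 took the highest share in WT, 38.04% to 43.1%, but 23.5% to 26.3% in mdx and 23.8% and 26.1% in dy2J. A share also falls where the sum rises, and Itga6 itself was not called in mdx against WT. Itga7 took 26.1% to 27.7% in WT, 35.3% to 41.3% in mdx, beside 27.9% and 31.7% in dy2J. Thus Itga7 was below Itga6 in all WT pools (log2 ratio -0.70 to -0.47) and above it in all mdx pools (0.54 to 0.65) and in both dy2J pools (0.10 and 0.41). The RGD-binding Itga5 and Itgav together took 20.95% to 26.6% in WT, 27.0% to 34.9% in mdx, beside 38.7% and 39.2% in dy2J, and these 3 ranges did not overlap. Itga1 took 6.37% to 7.32% in WT, 2.40% to 3.24% in mdx, beside 3.75% and 4.04% in dy2J.

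**Figure D3:**
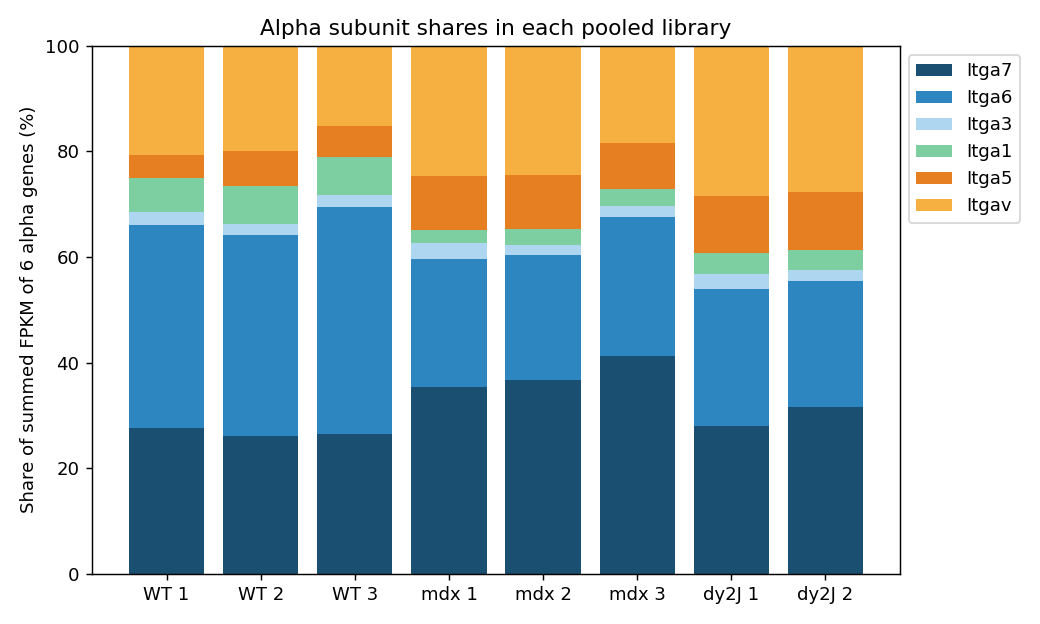
Share (%) of each alpha subunit gene in the summed FPKM of the 6 alpha genes, by pooled library, as stacked bars. Itga6 took 38.04% to 43.1% in WT and at most 26.3% in the models, and Itga5 with Itgav reached 38.7% and 39.2% in dy2J. In mdx the level of Itga6 itself was not called against WT, while the summed FPKM was higher in every mdx pool.

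The log2 ratio of Itga7 to Itgb1 was -2.89 to -2.70 in WT, -2.38 to -2.05 in mdx, beside -2.76 and -2.60 in dy2J. It was higher in every mdx pool than in WT by 0.60 on average (exact permutation test, two-sided, p = 0.1, the smallest that 3 pools against 3 allow). For dy2J against WT the exact permutation p was 0.6, and for dy2J against mdx it was 0.2. The log2 ratio of Itga5 to Itga7 was higher in both dy2J pools (-1.53 and -1.38) than in any WT (-2.66 to -1.98) or mdx pool (-2.25 to -1.78), with exact permutation p = 0.1 against either, again the smallest possible. For mdx against WT that ratio gave an exact permutation p of 0.3. Among beta genes Itgb1 took 75.5% to 80.4% in WT, 83.2% to 83.6% in mdx, beside 78.3% and 80.0% in dy2J.

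The genes most like a member over the 8 libraries were found by Pearson's r of log2(FPKM + 1), given as a description, since the points share 3 genotypes and the library scaling. For Itga7 they were Cd47, the integrin-associated protein (r = 0.991), Cdk5r1, an activator of the kinase Cdk5 (0.988), and Serpina3m (0.986). Mean Cd47 was 16.5 ± 0.783 FPKM for WT, 34.9 ± 7.20 for mdx and 22.1 ± 2.24 for dy2J, an order that matches Itga7. For Itga5 they were Cyp1b1 (0.995), Pi4k2b (0.993) and Ifitm2 (0.992), for Itgb1 Phf23 (0.996), D17Wsu104e (0.988) and the elongation factor gene Eef1b2 (0.985), and for Itgav Leprel4 (0.989), D19Bwg1357e (0.983) and Pglyrp1 (0.980). For Itgb3 they were Wwtr1, which encodes the transcriptional co-activator TAZ (0.993), Fkbp7 (0.989) and Taldo1 (0.987). Itga1 was most like Enpp2 (0.974), Map4k3 (0.970) and Gde1 (0.969), and Itga6 like Lig3 (0.963), Tfcp2l1 (0.959) and Cyp2d22 (0.954). Cdk5r1 reached 1 FPKM in mdx pools only, Pi4k2b and Pglyrp1 in pools of the models only, and Tfcp2l1 in WT and mdx pools only. These genes entered the search through groups in which the member is high, so their likeness is conditional on that. Among the members themselves Itga7 and Itgb1 (r = 0.913) and Itga5 and Itgav (0.908) ran closest, and Itga1 ran opposite to Itga3 (-0.930).

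The shares of all genes called stand beside the counts of each gene list that follow. They were 36.7% in mdx (23.9% higher, 12.8% lower) and 20.6% in dy2J (11.5% higher, 9.04% lower). For dy2J against mdx the share was 6.43% (2.77% higher, 3.66% lower). Of 14 tested genes for fibronectin and other RGD ligands 6 (42.9%) were higher and 0 lower in mdx, and 8 (57.1%) and 0 in dy2J, with medians of 0.52 and 0.87. Fn1, fibronectin itself, was at 25.8, 35.1 and 36.5 FPKM in WT, 68.9, 106 and 80.4 in mdx and 229 and 101 in dy2J. Every model pool exceeded every WT pool, and Fn1 rose by 1.35 in mdx and 2.21 in dy2J (limma adjusted p = 0.00767 and 0.00371), calls that held under all 17 alternatives. Tnc, tenascin-C, rose by 1.74 and 2.33, and Spp1, osteopontin, by 5.75 and 3.15, the last not passing without WT 1, WT 3, dy2J 1 or dy2J 2 (limma adjusted p up to 0.161). Npnt, nephronectin, was the 1 ligand called between the models, lower in dy2J by -0.95 (limma adjusted p = 0.0359). It did not pass under 6 of 17 alternatives (up to 0.201), among them without dy2J 1, dy2J 2, mdx 2 or mdx 3. Of 8 laminin chain genes tested 1 (12.5%) was higher in mdx (Lamb1, 0.45), below the share of all genes, and that call was lost without WT 1 (limma adjusted p = 0.0571). In dy2J 4 were higher and Lama2 was lower. Without dy2J 1 the counts in dy2J were 2 of 14 ligands and 0 laminin chains, and without dy2J 2 they were 6 ligands and 2 laminin chains (1 higher, 1 lower). Lama4, the chain of vessels and of early basement membrane, rose by 1.21 in dy2J (limma adjusted p = 0.0103), but did not pass without either dy2J pool (up to 0.0837).

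Other integrin subunits included 16 genes, of which 10 were tested. In mdx 6 were called higher and 1 lower. Of the 6, Itgax, Itgal and Itgb7 reached 1 FPKM in mdx pools only, so they were tested through the group in which they are high and their calls are conditional on that. Itgb2, the leukocyte beta subunit, rose by 2.32 ± 0.28 (limma adjusted p = 0.000677) and its partner Itgax by 2.31. Between the models Itgax, Itgb2 and Itgal were lower in dy2J, with the same condition on Itgax and Itgal, and none of the 3 passed without dy2J 1 or without dy2J 2. Itgb2 also did not pass without WT 2 or mdx 3 (limma adjusted p up to 0.186). Itga4, the subunit of the receptor for VCAM-1 and fibronectin, fell by 1.02 in both models (limma adjusted p = 0.0135 and 0.0351), from 6.06 ± 0.990 FPKM in WT to 2.64 ± 1.42 in mdx and 2.47 ± 0.499 in dy2J. The call in mdx held under all 16 alternatives, but that in dy2J did not pass without any 1 WT or dy2J library (up to 0.222). In dy2J the higher genes were Itga11, a collagen receptor subunit of fibroblasts (0.85, limma adjusted p = 0.0233), and Itga2b (0.63, limma adjusted p = 0.0476). Itga11 did not pass without WT 1, WT 2, WT 3 or dy2J 1 (up to 0.162). Itga2b did not pass in dy2J under 9 of 16 alternatives (up to 0.224), among them both other scalings and the fits without WT 1, WT 2, mdx 1, dy2J 1 or dy2J 2. Itgb4, the other beta partner of alpha-6, was at 0.475 to 1.06 FPKM and not tested.

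Among 22 tested linkers of integrins to the cytoskeleton 7 (31.8%) were higher and 3 (13.6%) lower in mdx, and 5 (22.7%) and 1 (4.55%) in dy2J, so that the shares lower were near or below those of all genes. Fermt2, kindlin-2 of muscle, fell from 93.2 ± 4.78 FPKM in WT to 55.9 ± 2.85 in mdx and 65.5 ± 1.86 in dy2J (-0.73 and -0.50, limma adjusted p = 0.000791 and 0.0111). Fermt3, kindlin-3 of blood cells, rose by 1.66 in mdx (limma adjusted p = 0.00117). The actin cross-linkers Actn1 and Flna rose in both, by 1.01 and 0.94 in mdx and by 1.05 and 0.87 in dy2J, where Flna also did not pass without WT 1 or WT 3. Lims2, an adaptor of integrin-linked kinase, fell by 0.91 in mdx, and its relative Lims1 rose by 0.56 in dy2J, where it was also above mdx (0.42, limma adjusted p = 0.0454), a call lost under 11 of 17 alternatives (up to 0.268), 7 of them fits without 1 library. Without dy2J 1 none of the linkers was called in dy2J, and without dy2J 2 only 1 was. Of 19 kinases and adaptors 7 (36.8%) were higher and 1 (5.26%) lower in mdx. In dy2J 2 (10.5%) were higher and 1 (5.26%) lower, in all 15.8% against 20.6% of all genes. Quantile normalization made that 6 and 4 in mdx, where the median turned from 0.14 to -0.09, and 0 and 1 in dy2J. Ptk2b rose by 1.57 and Apbb1ip, which recruits talin, by 1.29 in mdx, and Rapgef1 fell by 0.48. Ptk2b reached 1 FPKM only in pools of the models, so its call is conditional on entering the test through them. Apbb1ip (0.69) and Rap1b (0.59) rose and Arhgef7 fell by 0.38 in dy2J, but none of the 3 passed with the replicate block or without WT 2, WT 3, dy2J 1 or dy2J 2. Pak1 was lower in dy2J than in mdx (-0.87) and Rapgef1 higher (0.64), and neither passed without dy2J 1, without dy2J 2 or with the compared groups alone.

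Of 11 tested tetraspanins and integrin partners 6 (54.5%) were higher in mdx and 4 (36.4%) in dy2J, with 0 lower. Cd63 rose from 76.2 ± 1.04 FPKM to 198 ± 22.7 in mdx and 147 ± 1.37 in dy2J (1.36 and 0.94, limma adjusted p = 0.000141 and 0.00175). Cd82 rose by 1.24 and 0.84 and Cd9 by 1.07 and 0.93, and Cd82 did not pass in dy2J without WT 2, dy2J 1 or dy2J 2. Of 8 other laminin receptor genes 5 (62.5%) were higher in mdx and 3 (37.5%) in dy2J, again with 0 lower. Sdc1, a syndecan, rose by 1.13 and 1.17, and Sdc3 rose by 0.83 in mdx and Sdc4 by 0.88 in dy2J. Sdc3 did not pass without WT 1, WT 2, mdx 2 or mdx 3 (up to 0.0983), nor Sdc4 without WT 1, WT 3, dy2J 1 or dy2J 2 (up to 0.108). Without dy2J 1 the counts in dy2J were 1 tetraspanin or partner and 0 laminin receptors. Dag1, dystroglycan, missed the threshold in mdx (-0.00, limma adjusted p = 0.98) and dy2J (-0.11, limma adjusted p = 0.541). Median log2 fold changes of the 7 lists in mdx ranged from 0.14 to 0.65, beside 0.07 over all genes.

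**Figure D4:**
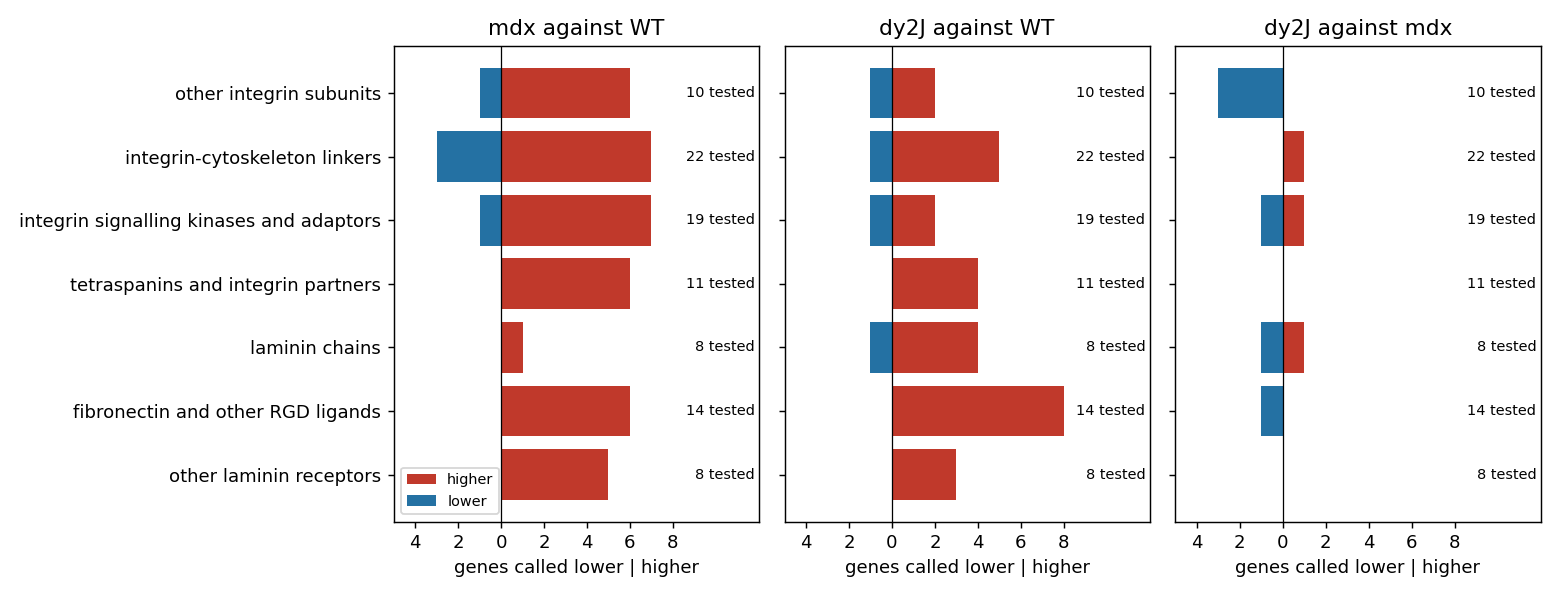
Number of genes called higher (right) or lower (left) in each of 7 lists of integrin-related genes, in the 3 comparisons, with the number tested. RGD ligands had 8 of 14 higher in dy2J against WT, where 11.5% of all genes were higher. Other integrin subunits had 3 of 10 lower in dy2J against mdx, where 3.66% of all genes were lower.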

How the data were processed

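Per the labels' protocols, the 8 libraries each hold pooled quadriceps RNA of 1 genotype. The authors deposited 1 table with FPKM per library and, for each model against WT, a p-value and q-value, as the file headers have it. Tools named in the submitters' processing notes are TopHat2 2.0.13, Cufflinks 2.2.1, Cuffnorm, Cuffdiff and build GRCm38. Their settings, library scaling and use of strand are not given in the sources used here, so overlapping genes are uncertain. Whole reads could not be recovered: in 19285 single-transcript genes 26.2% to 30.1% of low values lay within 0.1 of a multiple of the best step (20% by chance). The depth is unknown and no counting interval is given.

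The 12830 genes that reached 1 FPKM in 2 or more libraries were fitted as log2(FPKM + 1) with limma 3.58.1 in R 4.3.3. The model had 1 term per genotype, all 8 libraries, 5 residual degrees of freedom and a mean-variance trend. Exact permutation tests over pools cannot go below p = 0.1. All tests were two-sided, with Benjamini-Hochberg adjustment per comparison. The fit was tested on simulated data. The 17 alternatives changed pseudocount, expression minimum, scaling, groups fitted, trend, block or left out 1 library, and the same settings were applied to the lists after seeing the data. Names missing from the table (8673 of 8987) came from GENCODE M21.

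The members and lists were chosen with earlier results of these data known. Genes named beside the members are the 3 most alike per tested member, the 2 largest called rises and falls per list and comparison, and single genes chosen after their values were seen (Mettl7b, Pelo, Itgal, Itgb7, Itgb4, Dag1, Fn1). The text gives part of those the rule names. Figures used Python 3.11.15 and matplotlib 3.10.9.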

Additional observations from a re-analysis of the deposited data

Results flagged for a closer look

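Itga7 was called between the disease models. Its log2 fold change in dy2J against mdx was -0.62 (limma adjusted p = 0.0278), with both dy2J pools below all 3 mdx pools. This is the test of the difference between the 2 models' departures from WT. The call was lost under 9 of 17 alternatives, and pools of dy2J and mdx did not overlap in 41.9% of all genes. Strain background differs between the models along with the mutated gene, and these cannot be told apart.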

How the results depend on the processing

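Of the single-gene results, 445 kept direction and side of the threshold over the alternatives, 29 no longer passed, 11 newly passed and 9 changed sign. Those changing sign were not called in the main analysis. They were Itgb3 in mdx against WT under quantile normalization (-0.035), Itgav in dy2J against mdx with the replicate block (-0.091), and 4 results without 1 library. Those were Itgb5 in mdx against WT (-0.069 to 0.031), Itgb6 in dy2J against WT (-0.35 to 0.082), Itga1 in dy2J against mdx (-0.031 to 0.17) and Itgav in dy2J against mdx (-0.095 to 0.15). The cause was not tested. Quantile normalization moved the median of all genes in mdx against WT from 0.07 to -0.07, and the genes called from 3069 higher and 1645 lower to 2187 and 2947. In dy2J against WT it gave 1303 and 1658 in place of 1478 and 1160, and in dy2J against mdx 695 and 480 in place of 356 and 469, where median ratio rescaling gave 566 and 422.

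Genes called in mdx against WT (4714) numbered 2901 with a mean of at least 5 FPKM, which tests fewer genes, and 3490 to 4645 without 1 library. In dy2J against WT (2638) they numbered 459 to 3317 without 1 library, lowest without dy2J 1, and 1668 with the replicate block. In dy2J against mdx (825) they numbered 510 with no expression minimum, 531 with a mean of at least 5 FPKM, 460 with the compared groups alone, 509 with the block and 124 to 1211 without 1 library. Members called without 1 library numbered 5 to 6 in mdx against WT (6 with all libraries), 1 to 6 in dy2J against WT (4 with all libraries) and 0 to 1 in dy2J against mdx (1 with all libraries). That last call (Itga7) became 0 with no expression minimum, the compared groups alone or the block, and 2 under quantile normalization, with Itgb3 higher. Same-numbered pools correlated at -0.146 to 0.0847 in their deviations from the group mean, and pools of other numbers at -0.116 to 0.146. With 2 dy2J pools the deviations mirror each other, so each r with 1 of them fixes that with the other. Same-numbered pools of WT and mdx gave 0.0682, 0.0847 and 0.0448. These values cannot settle whether the numbers mark a pairing. Leaving out a dy2J pool assumes the lone pool varies like the other groups.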
